A study of Rattus norvegicus with 15 samples.

Results

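The genes described are 9 members of the interferon pathway, Stat2, Irf1, Irf3, Irf7, Irf9, Isg15, Ifit3, Mx1 and Oas1a, out of 37367 genes in the table. They were chosen by name. The level of a gene in a library was the sum of the FPKM (fragments scaled to transcript length and library depth) of its annotated transcripts and of the unnamed transcripts assembled at a locus that held no other gene name, which took 37 rows for the 9 genes. Irf1, Irf3, Irf7, Stat2 and Isg15 averaged at least 0.5 FPKM over the 15 libraries and were tested as part of a fit over 17895 genes. Irf9, Ifit3, Mx1 and Oas1a averaged 0.178, 0.424, 0.0159 and 0.186 FPKM, below 0.5, and are given as levels.

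Primary cultures labelled brain microvascular endothelial cells (BMECs) were grown from the cerebral cortex of Sprague-Dawley rat littermates aged 2 to 3 weeks, of both sexes, and were exposed to x-rays. There were 3 libraries in each of 5 groups, namely unexposed controls labelled as cultured for 12 h, cells taken 12 h after 5 Gy or 20 Gy, and cells taken 24 h after 5 Gy or 20 Gy. No group was unexposed at 24 h, so time after exposure and time in culture cannot be told apart in any comparison of 24 h with 12 h or with the controls. The labels do not tie a culture to an animal, so that p-values measure only the spread between these cultures.

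Interferons are secreted proteins that bind paired receptors at the cell surface, where JAK kinases phosphorylate STAT proteins. A complex that holds STAT2 and IRF9 binds the interferon-stimulated response element (ISRE) in front of response genes, and interferon gamma acts through the gamma-activated sequence (GAS). Interferon production is started by sensors of foreign or misplaced DNA and RNA, which act through IRF3 and IRF7, and damaged DNA that reaches the cytosol is a known trigger of this arm after irradiation.

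The cell type label was checked against fixed marker lists, and the endothelial markers were low. Of 9 endothelial markers found, only Flt1 and Kdr averaged at least 0.5 FPKM. Tie1 and Emcn were listed at 0 in every library, Cldn5 in 13 of 15, and the junction gene Cdh5 reached at most 0.275 FPKM. The summed endothelial markers lay between 2.15 and 6.15 FPKM in all libraries. All 5 fibroblast markers were present, and their sum was 1360 to 1430 FPKM in the controls, 803 to 1060 in the 5 Gy 12 h group, 872 to 944 in the 20 Gy 12 h group, 251 to 289 in the 5 Gy 24 h group and 241 to 293 in the 20 Gy 24 h group. Col1a1 averaged 516 FPKM in the controls and 27 and 31.4 at 24 h after 5 Gy and 20 Gy. Col1a2 went from 414 to 22.4 and 30.7, Dcn from 195 to 82.3 and 82.8, and Lum from 207 to 76 and 62.7. Pdgfra averaged 52.1 FPKM in the controls and 60.8 and 51.6 at 24 h, so the falling sum does not describe all 5 markers. The 5 pericyte markers, of which Kcnj8 and Abcc9 were listed at 0 throughout, summed to 54.2 to 62 FPKM in the controls, 44 to 47.9 and 42.1 to 46.1 at 12 h, and 24 to 26.5 and 15.6 to 20.5 at 24 h. The 4 astrocyte markers summed to 9.8 to 12.4 FPKM in the controls, 22.6 to 29.5 and 20.3 to 29.2 at 12 h, and 20.2 to 26.4 and 18.7 to 32 at 24 h. That rise was in Aldh1l1, which averaged 9.52 FPKM in the controls, 23.9 and 24.1 at 12 h and 20.8 and 23.7 at 24 h. Aqp4 was listed at 0 in every library and Gfap reached at most 0.182 FPKM. Slc1a3 averaged 1.79 FPKM in the controls and 0.918 to 2.36 in the exposed groups. Smooth muscle, neuronal and oligodendrocyte markers summed to 22 to 46.5, 3.17 to 12.9 and 0.254 to 1.22 FPKM over all libraries. None of the 8 microglial and leukocyte markers averaged 0.5 FPKM, and they summed to 0.565 to 2.74 FPKM in the controls and at most 0.496 in the other groups. In such bulk samples, fewer cells of a type and less RNA per cell cannot be told apart, and the part of these marker changes in the results for the interferon genes was not tested.

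The sequence from 250 bases before the transcript start to 50 after it is shown for 4 of the genes because they carry the pathway's sequence motifs. The motifs searched on both strands were GAAANNGAA, the repeat at the core of the ISRE, and TTCNNNGAA, the GAS. RefSeq promoters of the rat build GRCr8 matched 8 of the 9 genes, all but Isg15. Matches are in capitals and the rest in lower case, each read 5′ to 3′ on the gene's strand:
Irf7, chr1:205799974-205800273, minus strand: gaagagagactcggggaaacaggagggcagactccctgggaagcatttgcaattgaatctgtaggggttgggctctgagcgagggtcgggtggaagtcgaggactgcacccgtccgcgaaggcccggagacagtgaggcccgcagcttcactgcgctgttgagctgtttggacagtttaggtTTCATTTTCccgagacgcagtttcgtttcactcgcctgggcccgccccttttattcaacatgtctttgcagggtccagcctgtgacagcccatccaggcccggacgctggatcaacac
Irf1, chr10:38417685-38417984, plus strand: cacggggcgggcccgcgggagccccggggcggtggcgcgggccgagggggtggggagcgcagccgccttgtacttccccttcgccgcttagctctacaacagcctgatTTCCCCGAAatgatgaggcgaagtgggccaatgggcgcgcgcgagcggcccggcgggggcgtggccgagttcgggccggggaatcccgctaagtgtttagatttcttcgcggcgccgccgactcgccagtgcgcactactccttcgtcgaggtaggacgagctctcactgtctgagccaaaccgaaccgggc
Ifit3, chr1:241527076-241527375, plus strand: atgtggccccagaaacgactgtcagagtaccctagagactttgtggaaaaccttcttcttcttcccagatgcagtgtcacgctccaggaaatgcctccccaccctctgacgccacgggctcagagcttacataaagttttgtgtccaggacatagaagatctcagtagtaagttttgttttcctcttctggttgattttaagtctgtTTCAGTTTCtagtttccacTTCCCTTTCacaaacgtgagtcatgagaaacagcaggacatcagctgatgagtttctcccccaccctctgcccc
Oas1a, chr12:41330216-41330515, plus strand: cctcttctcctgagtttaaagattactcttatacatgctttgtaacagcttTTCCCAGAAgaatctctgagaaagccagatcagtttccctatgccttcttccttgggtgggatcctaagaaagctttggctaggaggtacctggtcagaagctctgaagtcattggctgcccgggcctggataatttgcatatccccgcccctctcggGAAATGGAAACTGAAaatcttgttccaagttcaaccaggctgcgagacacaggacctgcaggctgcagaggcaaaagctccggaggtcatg
Positions below count from the start site to the left end of a match. In Irf7 the ISRE repeat lay at -68 on the opposite strand. Irf1 held 1 GAS at -142 and no ISRE repeat. Ifit3 held 2 ISRE repeats on the opposite strand, at -43 and -24. Oas1a held 2 overlapping ISRE repeats at -41 and -35 and a GAS at -199. The Irf9 promoter, not printed, held a GAS at -99. Neither motif was found in this window for Stat2, Irf3 or Mx1. Of all 33469 promoters of this length, 9.71% held the ISRE repeat and 8.87% the GAS, so that single matches are common, and a match is a description and not a shown binding site.

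The members did not move as one block. At 12 h after either dose, Irf7 and Isg15 were higher than in the controls, where the Irf7 call at either time holds only with an unnamed transcript of its locus counted. At 24 h, Irf1 was about 4-fold higher than in the controls and Irf7 was still higher, while Irf3 was lower at both doses, Isg15 was lower after 5 Gy and Stat2 was lower after 20 Gy. These Irf3 and Stat2 calls were lost with only annotated transcripts. Oas1a, Ifit3 and Mx1, which encode antiviral effectors, stayed near or below 0.5 FPKM in nearly all libraries. A gene was called changed when limma's moderated test on log2(FPKM + 1) over all 17895 tested genes gave a Benjamini-Hochberg adjusted p under 0.05 and the fold was at least 1.5. Fold changes are given on that log2 scale, which understates the change of low genes such as Isg15.

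**Figure D1:**
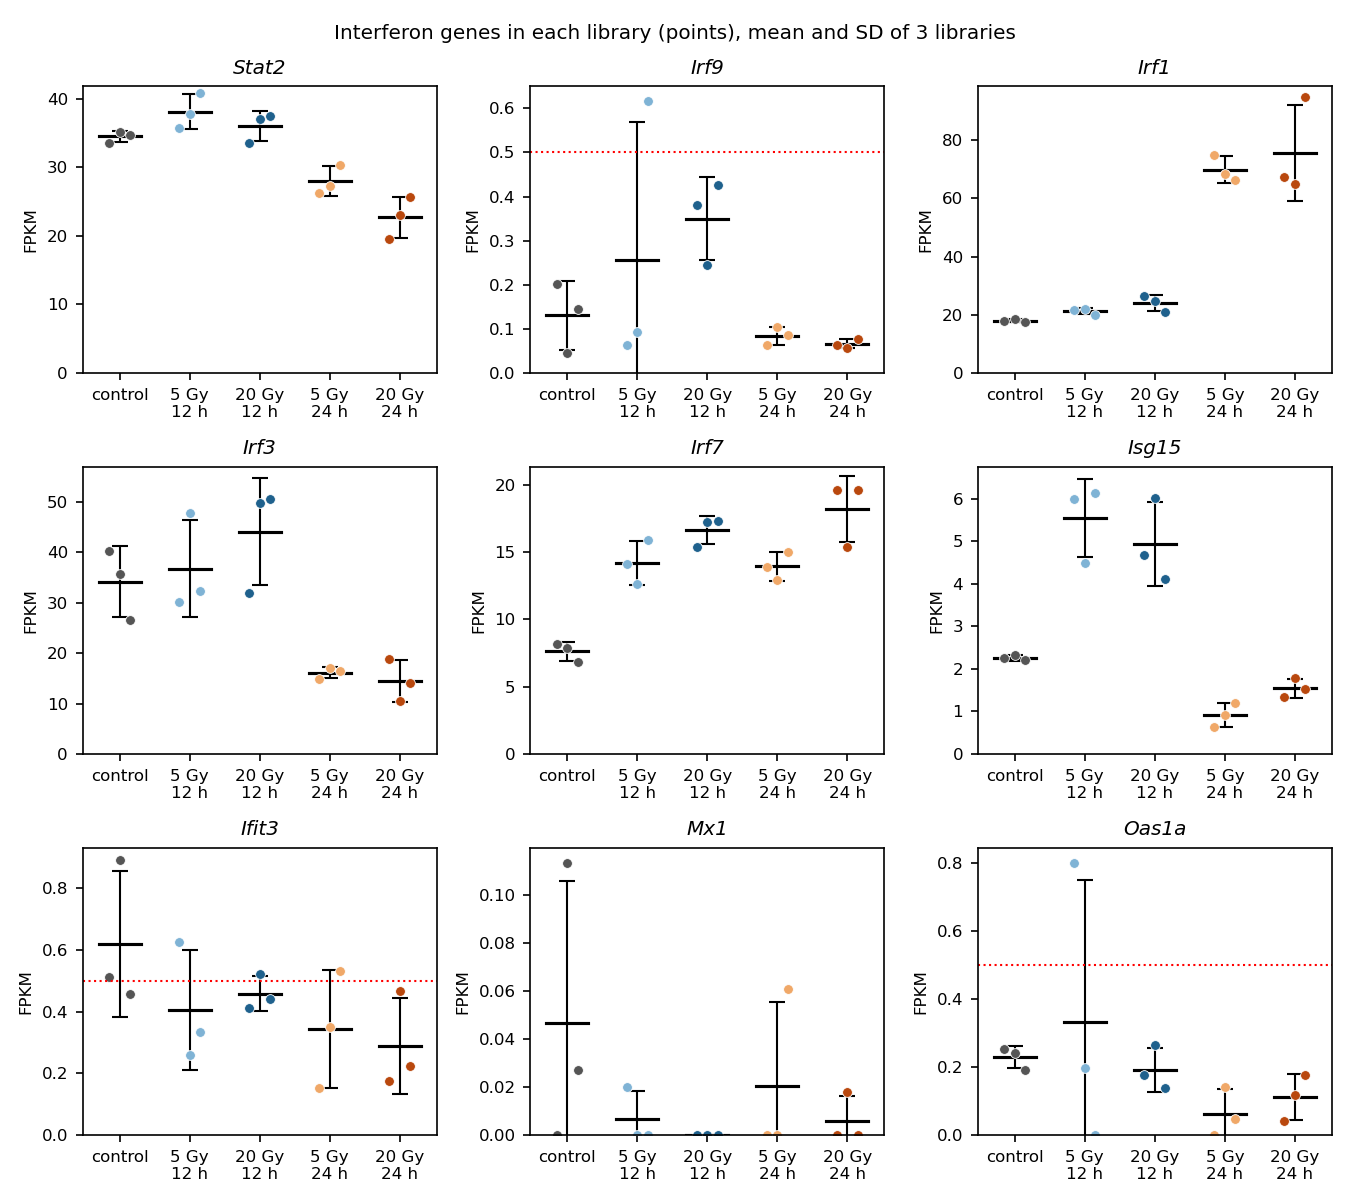
FPKM of the 9 interferon genes in each of the 15 libraries (points), with the mean and SD of the 3 libraries of a group (bars, cut at 0 where they pass it); the dotted line marks 0.5 FPKM. Irf1 lay at 64.9 FPKM or above in every 24 h library and at 26.5 or below in every other one, and Isg15 was highest at 12 h.

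STAT2 is a subunit of the complex that carries the type I interferon signal to the nucleus. Stat2 (chromosome 7, 2691369 to 2707741, plus strand, build Rnor_6.0 here and below) was read at 33.6, 35.2 and 34.7 FPKM in the controls, at 35.8, 37.8 and 40.8 in the 5 Gy 12 h group, and at 33.5, 37.0 and 37.5 in the 20 Gy 12 h group. The 24 h levels were 26.2, 27.3 and 30.4 FPKM after 5 Gy and 19.6, 23.0 and 25.6 after 20 Gy. The 5 Gy 12 h libraries lay above the controls, the 20 Gy 12 h libraries overlapped both, both 24 h groups lay below all of these, and the 20 Gy group lay below the 5 Gy group at 24 h. Against the controls, the log2 fold change was 0.14 ± 0.094 (SE, limma adjusted p = 0.347) and 0.06 ± 0.094 (adjusted p = 0.742) in the 5 Gy and 20 Gy 12 h groups. The 24 h values were -0.30 ± 0.094 (adjusted p = 0.016) after 5 Gy, which is under the 1.5-fold limit, and -0.59 ± 0.094 (adjusted p = 0.000157) after 20 Gy, which was called. That call stands close to the fold limit. It was lost under quantile normalization (-0.56), after rescaling libraries to an equal sum (-0.52), with only annotated transcripts (-0.57) or only the transcript of the highest mean (-0.51), and without control replicate 2 (-0.57), control replicate 3 (-0.58) or 20 Gy 24 h replicate 1 (-0.49). The median of all genes in that comparison was itself -0.14, or -0.03 after quantile normalization and -0.09 after rescaling, and between 12 h and 24 h after 20 Gy it was -0.15, -0.04 and -0.14 in the same order. The rescaled medians are over 21498 genes, because rescaling let more genes pass the filter. From 12 h to 24 h, Stat2 differed by -0.43 after 5 Gy (limma adjusted p = 0.0017, fold under 1.5, not called) and fell by 0.65 after 20 Gy (adjusted p = 8.65e-05, called). Without 20 Gy 24 h replicate 1 the latter value was -0.55, with only annotated transcripts it was -0.53, and neither was called.

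IRF9 is the DNA-binding subunit of the same complex, and the table does not give a clean level for it. The annotated Irf9 transcript (chromosome 15, 34282936 to 34288138, plus strand) was read at 0.201, 0.0457 and 0.145 FPKM in the controls, 0.0624, 0.0919 and 0.617 in the 5 Gy 12 h group, 0.38, 0.244 and 0.426 in the 20 Gy 12 h group, 0.0635, 0.105 and 0.0853 in the 5 Gy 24 h group, and 0.0634, 0.0576 and 0.0776 in the 20 Gy 24 h group. In bases, its FPKM corresponded to 3.13 to 43.6 reads of 150 bases per library, with a median of 6.09. The 3 libraries in the 20 Gy 12 h group lay above the controls and above those in the 20 Gy 24 h group (exact two-sided permutation p = 0.1 for each, the smallest that 3 against 3 allows). The assembly joined Irf9 with its upstream neighbour Rnf31, a ubiquitin ligase gene, in 1 locus. It placed 7 unnamed transcripts there that reach into both genes, and these were not summed for Irf9 because the locus holds both names. The 7 transcripts summed to 4.33, 5.52 and 5.03 FPKM in the controls, 7.34 to 7.90 and 6.19 to 7.88 in the 5 Gy and 20 Gy 12 h groups, and 18.1 to 19.6 and 15 to 22.2 at 24 h. With them added to Irf9, an alternative chosen after seeing the data, the log2 fold change against the controls was 0.54 (limma adjusted p = 0.00953) and 0.44 (adjusted p = 0.029) at 12 h, both under 1.5-fold. It was 1.71 (adjusted p = 1.78e-07) and 1.70 (adjusted p = 2.07e-07) in the 5 Gy and 20 Gy 24 h groups. How much of this signal belongs to Irf9 and how much to Rnf31 cannot be told apart here.

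**Figure D2:**
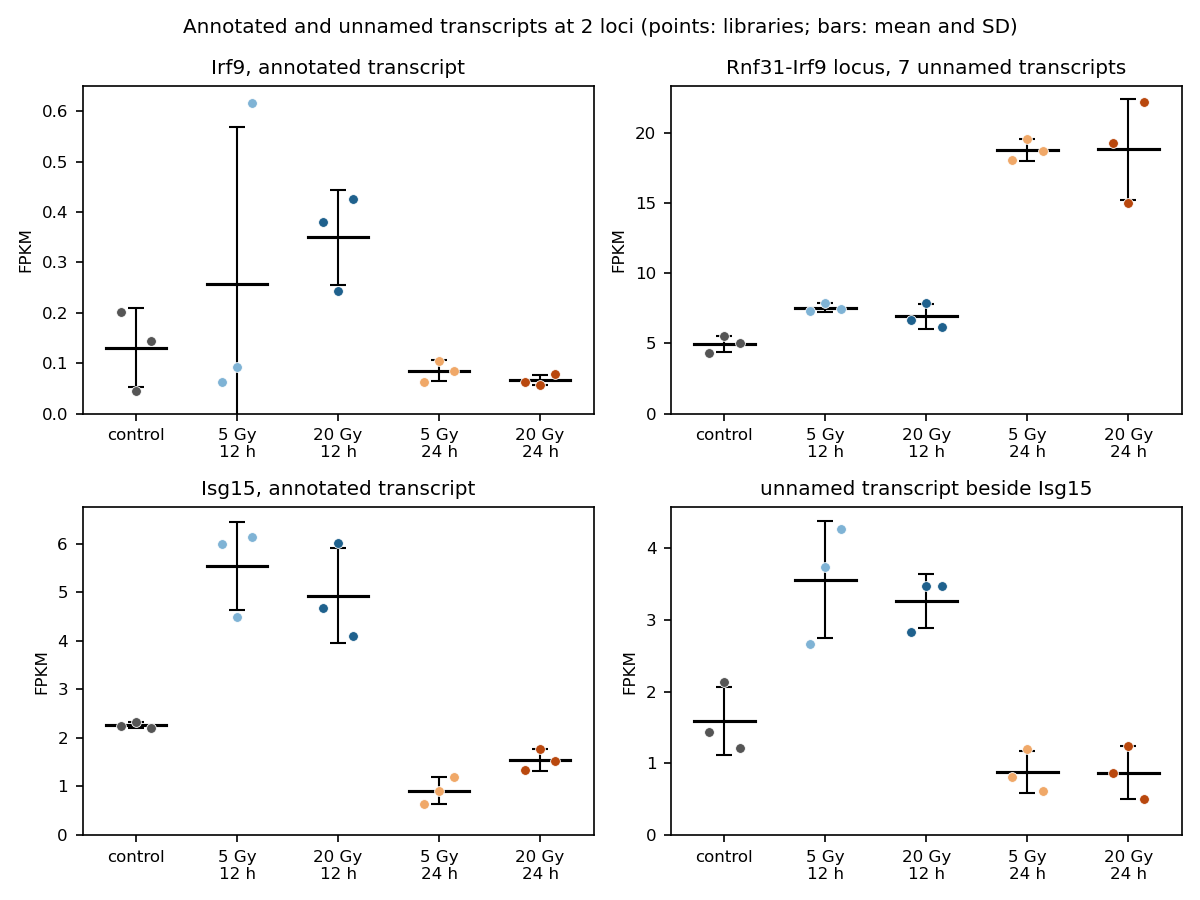
FPKM by library (points) with mean and SD of 3 libraries (bars, cut at 0 where they pass it) for the annotated Irf9 transcript, the 7 unnamed transcripts over Rnf31 and Irf9, the annotated Isg15 transcript and the unnamed transcript beside it. The unnamed transcripts at the Irf9 locus reached 15 to 22.2 FPKM at 24 h while the annotated Irf9 transcript stayed at 0.105 or below there, and both transcripts at the Isg15 locus were highest at 12 h.

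IRF1 is a transcription factor that is itself induced through a GAS by interferon gamma and that activates many response genes. Irf1 (chromosome 10, 39109522 to 39116531, plus strand) stood about 4-fold above the controls at 24 h. It was read at 17.8, 18.5 and 17.5 FPKM in the controls, 21.6, 22.1 and 20.0 in the 5 Gy 12 h group, and 26.5, 24.9 and 21.1 in the 20 Gy 12 h group. The level at 24 h was 75.1, 68.5 and 66.2 FPKM after 5 Gy and 67.5, 64.9 and 94.8 after 20 Gy. Every 24 h library lay above every other library, the 12 h libraries lay above the controls, and the doses overlapped at both times. The log2 fold change against the controls was 0.23 ± 0.13 (SE, limma adjusted p = 0.239) in the 5 Gy 12 h group and 0.40 ± 0.13 (adjusted p = 0.0469, fold 1.32) in the 20 Gy 12 h group, neither called. For 24 h the fit gave 1.90 ± 0.13 (adjusted p = 8.41e-08, fold 3.74) after 5 Gy and 2.00 ± 0.13 (adjusted p = 5.95e-08, fold 3.99) after 20 Gy. Irf1 rose between 12 h and 24 h by 1.67 after 5 Gy (limma adjusted p = 3.34e-07) and by 1.59 after 20 Gy (adjusted p = 5.07e-07).

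The transcripts summed for Irf1 changed their shares with the groups. The annotated transcript has 9 exons, and the most abundant unnamed one has 8, the same start, and an end 19 bases short of it. That unnamed transcript was listed at 0 in all 6 libraries of 12 h. It made up 9.93%, 36.1% and 34.3% of Irf1 in the controls, 2.23% to 22.6% in the 5 Gy 24 h group and 51.4% to 59.3% in the 20 Gy 24 h group. The annotated transcript alone averaged 53.8 ± 9.03 FPKM (SD, n = 3) in the 5 Gy 24 h group and 23.2 ± 5.27 (SD, n = 3) after 20 Gy. With only annotated transcripts, Irf1 was called higher at 12 h (0.91 and 1.12 after 5 Gy and 20 Gy), its rise between 12 h and 24 h after 20 Gy was 0.13 and not called, and it was called lower after 20 Gy than after 5 Gy at 24 h (-1.19). The sum over the locus differed by 0.09 ± 0.13 between the doses at 24 h (limma adjusted p = 0.752). How the assembly divided reads between these overlapping transcripts was not tested.

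IRF3 is present in most cells before any signal and is switched on by phosphorylation downstream of the sensors. Irf3 (chromosome 1, 100992405 to 100997198, plus strand) was read at 40.3, 35.8 and 26.5 FPKM in the controls, 30.1, 47.8 and 32.4 in the 5 Gy 12 h group, and 31.9, 49.8 and 50.7 in the 20 Gy 12 h group. At 24 h it stood at 14.9, 17.0 and 16.5 FPKM after 5 Gy and at 18.9, 10.5 and 14.1 after 20 Gy. The control and 12 h groups overlapped and spread widely, and both 24 h groups lay below all of their libraries and overlapped each other. The log2 fold change against the controls was 0.09 ± 0.24 (SE, limma adjusted p = 0.842) and 0.35 ± 0.24 (adjusted p = 0.367) in the 5 Gy and 20 Gy 12 h groups. For 24 h the fit gave -1.02 ± 0.24 (adjusted p = 0.00252) and -1.20 ± 0.24 (adjusted p = 0.000829), both called. Irf3 fell between 12 h and 24 h by 1.11 after 5 Gy (limma adjusted p = 0.00158) and by 1.55 after 20 Gy (adjusted p = 0.000135). The locus carried 1 annotated and 17 unnamed transcripts. The annotated one held 5.84% to 36% of the sum, spread without order over the groups (8.15% to 36% among the controls alone), and tested by itself it gave -1.72 and -1.18 at 24 h against the controls, neither called. Between 12 h and 24 h the annotated transcript gave -1.04 after 5 Gy and -1.44 after 20 Gy, again neither called. The Irf3 calls therefore rest on counting the unnamed transcripts.

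IRF7 amplifies interferon production and is in many cell types itself a product of interferon signalling. Irf7 (chromosome 1, 214248837 to 214252456, minus strand) was the one member called higher than the controls in all 4 exposed groups. It was read at 8.19, 7.86 and 6.85 FPKM in the controls, 14.1, 12.6 and 15.9 in the 5 Gy 12 h group, and 15.4, 17.2 and 17.3 in the 20 Gy 12 h group. At 24 h it stood at 13.9, 12.9 and 15 FPKM after 5 Gy and at 19.6, 15.4 and 19.6 after 20 Gy. Every exposed library lay above every control, and neighbouring exposed groups in the order of the means overlapped. At 24 h every 20 Gy library lay above every 5 Gy library, while the doses overlapped at 12 h. The log2 fold change was 0.81 ± 0.11 (SE, limma adjusted p = 0.000351, fold 1.76) and 1.03 ± 0.11 (adjusted p = 7.49e-05, fold 2.04) in the 5 Gy and 20 Gy 12 h groups. It was 0.79 ± 0.11 (adjusted p = 5.73e-05, fold 1.73) and 1.15 ± 0.11 (adjusted p = 2.54e-06, fold 2.22) at 24 h. Between 12 h and 24 h it differed by -0.02 after 5 Gy (limma adjusted p = 0.884) and by 0.12 after 20 Gy (adjusted p = 0.405), neither called.

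The higher Irf7 sum came with an unnamed transcript that starts 422 bases upstream of the annotated one and ends 562 bases short of it, where the annotated transcript overlaps the opposite-strand gene Phrf1 by 65 bases. This unnamed transcript made up 0.25%, 15% and 76.8% of Irf7 in the controls, 46.9% to 88.3% at 12 h and 74.4% to 90.7% at 24 h. The annotated transcript was read at 8.13, 6.68 and 1.59 FPKM in the controls and averaged 2.70 ± 1.81 (SD, n = 3) in the 5 Gy 12 h group, 6.79 ± 2.49 in the 20 Gy 12 h group, and 2.47 ± 1.36 and 2.41 ± 0.537 at 24 h. With annotated transcripts alone the direction turned in 3 of the 4 groups, to -0.75 in the 5 Gy 12 h group, -0.79 in the 5 Gy 24 h group and -0.75 in the 20 Gy 24 h group, and the 20 Gy 12 h group gave 0.41. None of these was called. The call for Irf7 therefore rests on counting the unnamed transcript as Irf7.

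**Figure D3:**
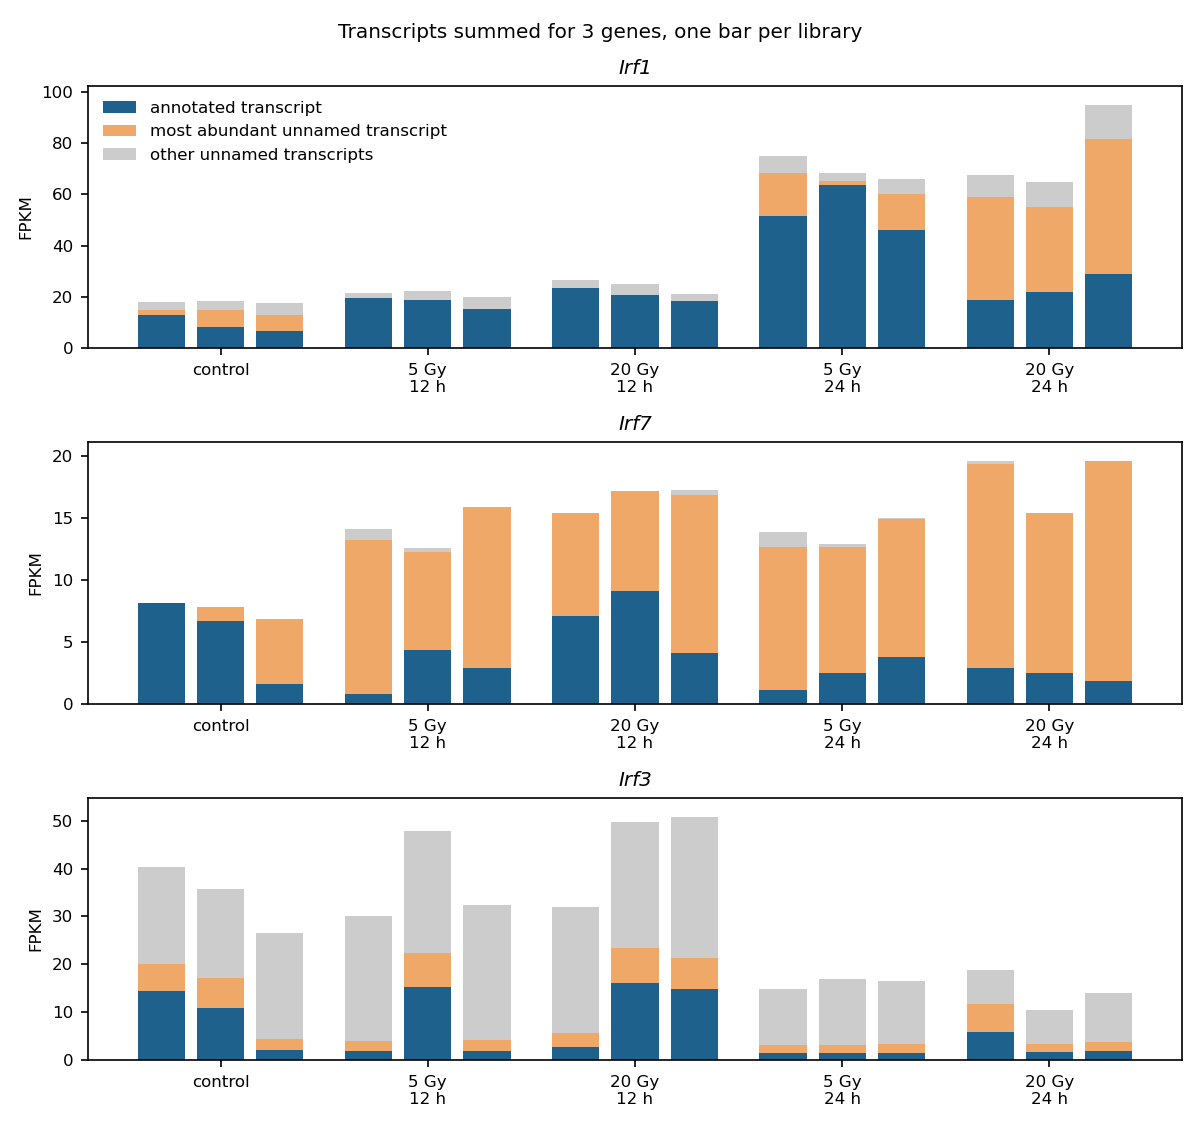
FPKM of Irf1, Irf7 and Irf3 by library (1 bar per library, 3 per group), divided into the annotated transcript, the most abundant unnamed transcript of the locus and the other unnamed transcripts. The unnamed Irf1 transcript was absent from the 6 bars of 12 h and took 51.4% to 59.3% in the 20 Gy 24 h group, and the annotated share of Irf7 ran from 23.2% to 99.4% within the controls.

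ISG15 is a ubiquitin-like protein and one of the most strongly induced interferon response products. Isg15 (chromosome 5, 173624310 to 173626248, minus strand) has 1 transcript in the table and was low. It was read at 2.25, 2.33 and 2.20 FPKM in the controls, 6, 4.49 and 6.13 in the 5 Gy 12 h group, and 4.67, 6.02 and 4.10 in the 20 Gy 12 h group. Levels at 24 h were 0.632, 0.915 and 1.19 FPKM after 5 Gy and 1.33, 1.78 and 1.52 after 20 Gy. Both 12 h groups lay above the controls and both 24 h groups below them, the doses overlapped at 12 h, and at 24 h every 20 Gy library lay above every 5 Gy library. The log2 fold change against the controls was 0.99 ± 0.15 (SE, limma adjusted p = 0.000594) and 0.85 ± 0.15 (adjusted p = 0.00207) in the 5 Gy and 20 Gy 12 h groups, both called. At 24 h it was -0.78 ± 0.15 (adjusted p = 0.000583, called) after 5 Gy and -0.36 ± 0.15 (adjusted p = 0.053, not called) after 20 Gy. Isg15 fell between 12 h and 24 h by 1.77 after 5 Gy (limma adjusted p = 7.82e-07) and by 1.21 after 20 Gy (adjusted p = 2.11e-05).

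An unnamed transcript of 917 bases and 1 exon lay 224 bases beyond the 3′ end of Isg15 on the same strand, at 173623169 to 173624085. It was singled out after its values were seen. It was read at 1.44, 2.13 and 1.22 FPKM in the controls, 2.67, 3.74 and 4.27 in the 5 Gy 12 h group, 2.83, 3.48 and 3.48 in the 20 Gy 12 h group, 0.815, 1.20 and 0.617 in the 5 Gy 24 h group, and 0.86, 1.24 and 0.507 in the 20 Gy 24 h group. As for Isg15, the 12 h groups lay above the controls. It was called higher at 12 h (0.81, limma adjusted p = 0.00976, and 0.73, adjusted p = 0.0197) and lower at 24 h than at 12 h (-1.27, adjusted p = 9.38e-05, and -1.21, adjusted p = 0.000154). Whether it is part of the Isg15 transcript was not tested.

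IFIT3, MX1 and OAS1A are antiviral effectors that bind viral RNA complexes, block viral nucleocapsids and make the messenger that activates RNase L. The highest value of their genes in any library was 0.893 FPKM. Ifit3 (chromosome 1, 252906234 to 252911382, plus strand) was read at 0.511, 0.893 and 0.457 FPKM in the controls, 0.627, 0.259 and 0.334 in the 5 Gy 12 h group, 0.413, 0.522 and 0.44 in the 20 Gy 12 h group, 0.151, 0.349 and 0.532 in the 5 Gy 24 h group, and 0.176, 0.466 and 0.223 in the 20 Gy 24 h group. All its groups overlapped their neighbours in the order of the means, with the controls at the top. Oas1a (chromosome 12, 41200718 to 41211909, plus strand) was read at 0.254, 0.243 and 0.192 FPKM in the controls and at 0.801, 0.196 and 0 in the 5 Gy 12 h group. It stood at 0.177, 0.264 and 0.137 in the 20 Gy 12 h group, 0, 0.141 and 0.0466 in the 5 Gy 24 h group, and 0.0409, 0.119 and 0.176 in the 20 Gy 24 h group, and both 24 h groups lay below the controls (exact two-sided permutation p = 0.1 for each, the smallest possible). Mx1 (chromosome 11, 37891156 to 37914983, minus strand) was listed at 0 in 10 of 15 libraries, among them all 3 in the 20 Gy 12 h group, and reached 0.113 FPKM in 1 control. These levels correspond to at most 78.2 reads for Ifit3, 68 for Oas1a and 16 for Mx1. In a limma fit without the filter, neither these genes nor Irf9 were called in any comparison. Ifit3 in the 20 Gy 24 h group against the controls was at -0.33 (limma adjusted p = 0.0745). On the log2(FPKM + 1) scale a fall from levels this low could hardly reach the 1.5-fold limit, so the missing calls do not show that they were unchanged.

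The number of members called is read against the share of all 17895 tested genes called in the same comparison. In the 5 Gy 12 h group, 2 of the 5 tested members were called, both higher, where 9.94% of all genes were called (4.98% higher, 4.96% lower). In the 20 Gy 12 h group, the same 2 members, Irf7 and Isg15, were called higher, where 8.54% of all genes were called (4.9% higher, 3.64% lower). In the 5 Gy 24 h group, 2 members were called higher and 2 lower, where 41.3% of all genes were called (20.5% higher, 20.8% lower). In the 20 Gy 24 h group, again 2 were called higher and 2 lower, where 40.3% of all genes were called (17% higher, 23.3% lower). Calls were common among all genes at 24 h, and with 5 tested members nothing particular to them is read from these counts. Between 12 h and 24 h after 5 Gy, 1 member was called higher and 2 lower, where 36.4% of all genes were called (17.1% higher, 19.3% lower). After 20 Gy, 1 was called higher and 3 lower, where 36.3% were called (14.1% higher, 22.1% lower, which is 2526 and 3963 genes, against 3039 and 3067 after quantile normalization). All 4 exposed groups were compared with the same 3 controls, so these counts are not independent.

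**Figure D4:**
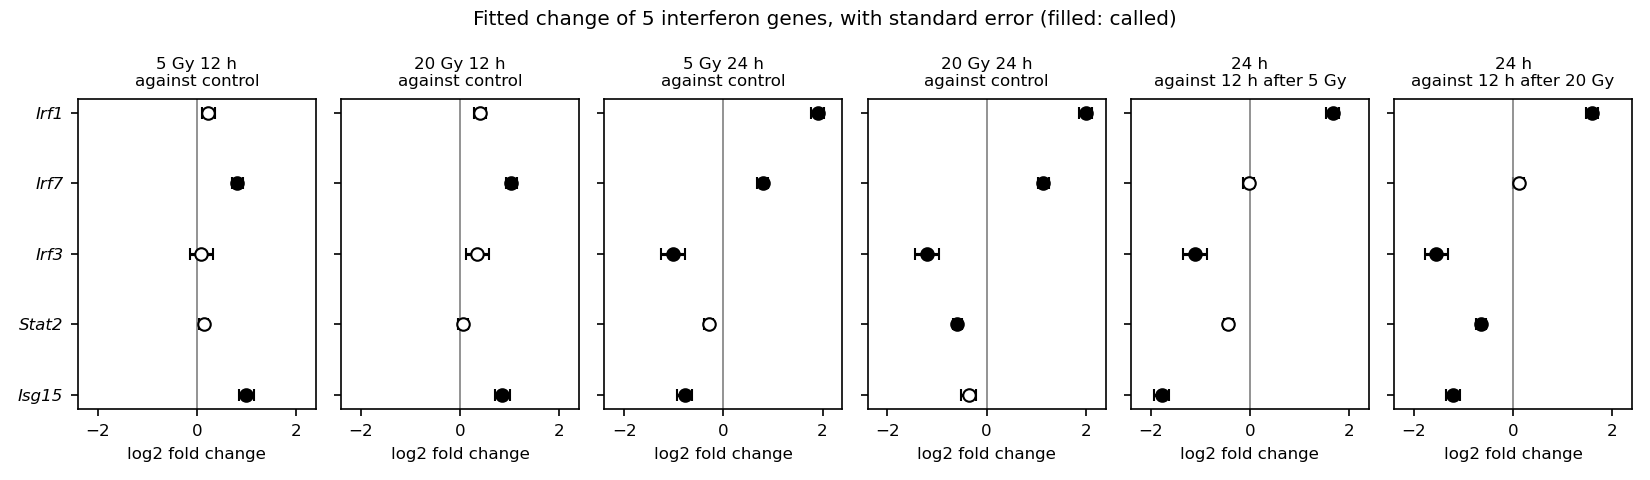
Log2 fold change (x axis) of the 5 tested interferon genes (rows) in 6 comparisons (panels), with the standard error as bars and filled points for calls. Irf7 and Isg15 were called at 12 h after both doses, and Irf1 at 24 h stood at 1.90 and 2.00.

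No tested member was called between the doses. At 12 h limma called 0 of 5 members between 20 Gy and 5 Gy, and 0 of 5 had an unadjusted p under 0.05, where 0.123% of all genes were called. At 24 h it also called 0 of 5, where 2.42% of all genes were called (171 higher and 262 lower, against 199 and 151 after quantile normalization). There, 3 members had an unadjusted p under 0.05 in limma, with Isg15 at 0.42 ± 0.15 (adjusted p = 0.135), Irf7 at 0.36 ± 0.11 (adjusted p = 0.0974) and Stat2 at -0.29 ± 0.094 (adjusted p = 0.102). The change from 12 h to 24 h differed between the doses for 0 of 5 members and for 0.553% of all genes. Of all genes, 46 were higher and 53 lower, or 52 and 33 after quantile normalization. After rescaling to the same sum the counts were 42 and 78, with 21498 genes passing the filter instead of 17895. Of the members, Isg15 came closest, at 0.56 ± 0.21 with an unadjusted p of 0.0197 and a limma adjusted p of 0.285.

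Other genes of the pathway were taken from lists of 97 names beside the members, of which 88 were found and 62 passed the filter of 0.5 FPKM. At 12 h, 6 of the 62 were called higher and 1 lower after 5 Gy, and 4 higher and 1 lower after 20 Gy, or 11.3% and 8.06% of them. At 24 h, 15 were called higher and 15 lower after 5 Gy, and 16 higher and 16 lower after 20 Gy, or 48.4% and 51.6%. The median log2 fold change of the 62 was 0.09 after both doses at 12 h, beside 0.03 and 0.01 over all genes. At 24 h it was -0.11 and -0.10, beside -0.05 and -0.14. Of all genes, 9.94% and 8.54% were called at 12 h after 5 Gy and 20 Gy, and 41.3% and 40.3% at 24 h. The shares of the 62 were near these at 12 h and above them at 24 h. Whether the 24 h shares differ by more than the spread among genes was not tested.

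Of the ligands, 8 of 9 names were found and none passed the filter. Ifna2, Ifna4, Ifna5, Ifna11 and Ifng were listed at 0 in every library, and Ifnb1, the first type I interferon made by most cells, in 12 of 15, with 0.192 FPKM as its highest value. Ifne, an interferon of epithelia, averaged 0.43 FPKM in the controls and 0.145 or less in the exposed groups. Among 6 receptor genes, Ifnar2 and Ifnlr1 were called higher at 24 h after both doses and none was called lower. Of all genes, 20.5% and 17% were called higher there and 20.8% and 23.3% lower. Nothing particular to the receptors is read from these counts. Ifnar2, a chain of the type I interferon receptor, averaged 6.23 FPKM in the controls, 4.01 and 3.61 at 12 h and 14.2 and 13.4 at 24 h, with a log2 fold change at 24 h of 1.13 ± 0.26 (limma adjusted p = 0.00221) and 1.04 ± 0.26 (adjusted p = 0.00374). Its partner chain Ifnar1 stayed between 20.0 and 21.6 FPKM on average in all 5 groups. At 12 h limma called 0 of 6 receptors, although 3 after 5 Gy and 4 after 20 Gy had an unadjusted p under 0.05. Some passed the adjusted p and missed only the 1.5-fold limit. These were Ifngr2 after 5 Gy and 20 Gy (-0.48, limma adjusted p = 0.00341, and -0.49, adjusted p = 0.00335) and Ifngr1 after 5 Gy (-0.42, adjusted p = 0.0388). Il10rb, a shared chain of the interferon lambda receptor, was read at 0.549, 15.2 and 14.5 FPKM in the controls, and between 0.263 and 12.7 in the other libraries, so that the spread within the controls was as wide as that over the other groups.

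Among the signal carriers, Jak2 was called higher at 24 h (0.79 and 0.74 after 5 Gy and 20 Gy) and Tyk2, the kinase bound to IFNAR1, lower (-0.71 and -1.14). At 12 h none of these 3 was called, and 1 had an unadjusted p under 0.05 after each dose. Of the other interferon regulatory factors, 2 of 5 were tested, and Irf2, a repressor that competes with IRF1 for the same sites, was called higher at 24 h (1.5 ± 0.32, limma adjusted p = 0.00133, and 1.70 ± 0.32, adjusted p = 0.000521). It averaged 9.33 FPKM in the controls, 29.1 in the 5 Gy 24 h group and 35.2 in the 20 Gy 24 h group. Neither was called at 12 h, when 0 of 2 had an unadjusted p under 0.05 at either dose.

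Of 8 tested sensors and adaptors, 3 were called higher and 3 lower in the 5 Gy 24 h group, and 2 higher and 3 lower after 20 Gy. Over all genes, 41.3% and 40.3% were called in these comparisons, and nothing particular to the sensors is read from these counts. Tmem173, which encodes the DNA-signalling adaptor STING, averaged 5.61 FPKM in the controls and was called lower in all 4 exposed groups, at -0.97, -0.59, -1.76 and -1.68 for 5 Gy 12 h, 20 Gy 12 h, 5 Gy 24 h and 20 Gy 24 h. Ikbke, a kinase that phosphorylates IRF3 and IRF7, averaged 18.4 FPKM in the controls, 26.1 and 24.7 at 12 h, 6.93 in the 5 Gy 24 h group and 3.40 in the 20 Gy 24 h group. It was the only list member called between the doses, at 24 h (-0.85 ± 0.16, limma adjusted p = 0.0101). Between the doses at 12 h, 0 of the 62 were called, with 9 at an unadjusted p under 0.05, and for the change over time between the doses 0 were called, with 6. Mavs, the adaptor of the RNA sensors, was called higher in the 5 Gy 12 h group (0.82) and at 24 h (0.93 and 0.74), and Ifih1, an RNA sensor, at 24 h (1.00 and 0.95).

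Of 37 tested response genes, 4 were called higher and none lower at 12 h after each dose. Over all genes, 4.98% were called higher and 4.96% lower at 12 h after 5 Gy, and 4.9% and 3.64% after 20 Gy. Of the 37, 13 after 5 Gy and 12 after 20 Gy had an unadjusted p under 0.05 in limma. Nothing particular to the response genes is read from these 12 h counts. At 24 h, 5 were higher and 11 lower after 5 Gy, and 6 higher and 12 lower after 20 Gy, with a median of -0.26 at both doses. Over all genes, 20.5% were higher and 20.8% lower after 5 Gy with a median of -0.05, and 17% and 23.3% after 20 Gy with a median of -0.14 (3442 higher and 3446 lower after quantile normalization), and nothing particular to the response genes is read from these counts. Dtx3l, a ubiquitin ligase, rose at 12 h (0.74 and 0.93) and averaged 3.62 FPKM in the controls and 6.73 to 7.79 in the exposed groups. Gbp4, an interferon-induced GTPase, was listed at 0 in all 3 controls and read at 0.158 to 1.18 FPKM in the exposed libraries. At 24 h the largest rise was that of Eif2ak2, the kinase PKR that halts translation on double-stranded RNA, which averaged 8.71 FPKM in the controls and 27.5 and 39.6 after 5 Gy and 20 Gy (1.53 and 2.06). The largest falls were those of Uba7, the enzyme that activates ISG15 for conjugation (5.89 FPKM in the controls, 0.756 and 1.06 at 24 h, -1.97 and -1.74), Ifi47 (-1.79 and -1.70) and Trim25 (-1.67 and -1.54), which was read at 63.9, 23.0 and 66.9 FPKM in the controls. Ube2l6, the enzyme that next carries ISG15, also fell, from 10.6 FPKM to 3.78 and 4.87 (-1.28 and -0.98), and is named after its values were seen. Isg20 averaged 4.93 FPKM in the 20 Gy 12 h group and 0.235 in the 20 Gy 24 h group (-2.26 ± 0.55, limma adjusted p = 0.00358). After 5 Gy it averaged 4.50 FPKM at 12 h and was read at 6.93, 0.321 and 0.211 at 24 h (-1.22, limma adjusted p = 0.0763, not called). Of 6 tested feedback inhibitors, 3 were called higher in the 5 Gy 24 h group and 4 after 20 Gy, and none lower. With 6 genes, beside 20.5% and 17% of all genes called higher, nothing particular to these inhibitors is read from the counts. Socs3, which blocks JAK kinases, averaged 24.0 FPKM in the controls, 15.4 and 18.9 at 12 h and 82.5 and 86.1 at 24 h (1.73 at both doses).

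**Figure D5:**
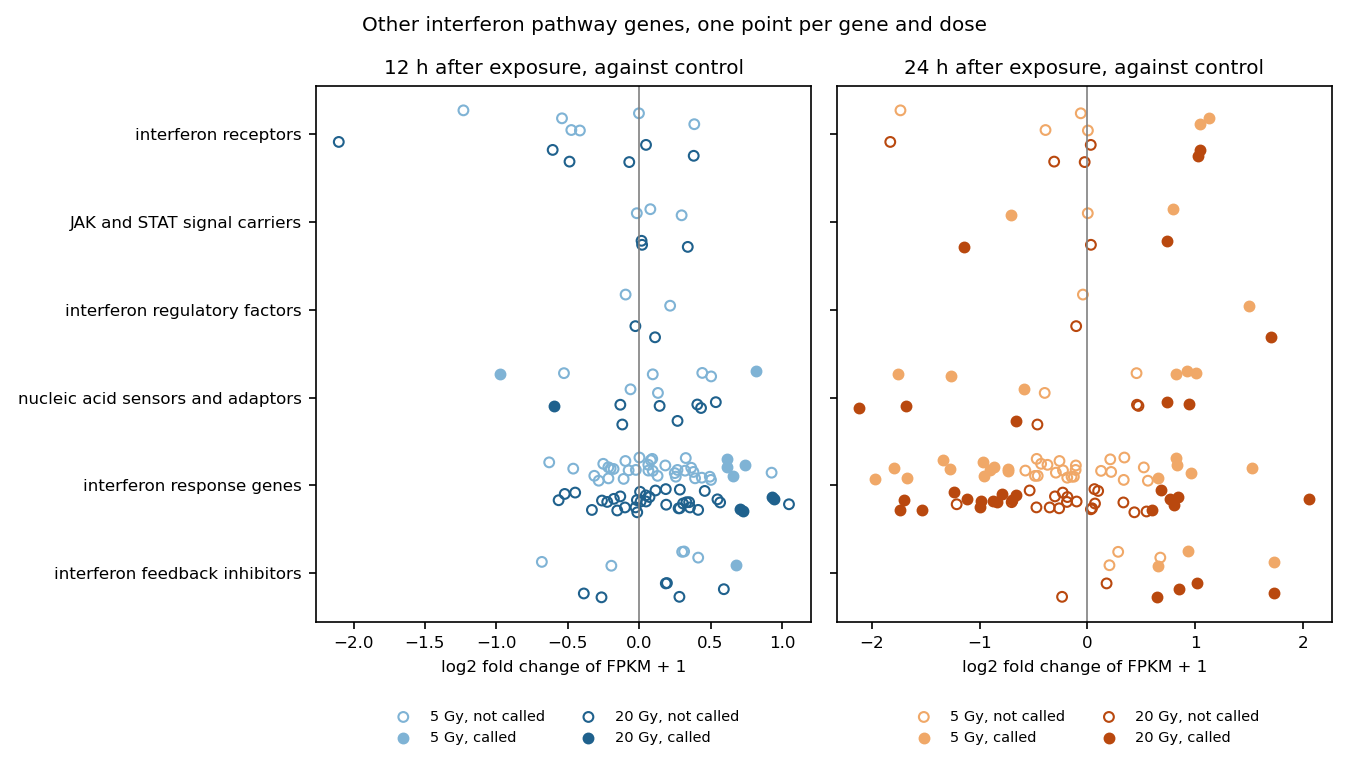
Log2 fold change of FPKM + 1 against the controls (x axis) for the 62 tested pathway genes other than the 9 members, 1 point per gene and dose, by list (rows) and time (panels), filled where called. At 24 h, calls of the response genes lie on both sides of 0, 5 higher and 11 lower after 5 Gy and 6 and 12 after 20 Gy (over all genes 20.5% and 20.8%, and 17% and 23.3%). The calls among the 6 feedback inhibitors, 3 after 5 Gy and 4 after 20 Gy, lie above 0.

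The genes whose levels followed each member most closely over the 15 libraries were sought among 8898 genes with a mean of at least 5 FPKM, by Pearson's r of log2(FPKM + 1). They were Eid2b (0.975) and Natd1 (0.974) for Stat2, Zfp131 and Trip10 (0.988 each) for Irf1, Scaf1 (0.937) for Irf3, Svop (0.966) and Ephx1 (0.963) for Irf7, and Slc22a17 and Itm2c (0.958 each) for Isg15. None of these genes is on the pathway lists. The libraries share their groups, so that these values describe the pattern over 5 groups more than 15 separate points.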

How the data were processed

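RNA was sequenced with reads of 150 bases from 15 cultures. The authors mapped reads to Rnor_6.0 with HISAT2 2.0.13, assembled transcripts with StringTie and deposited 1 table of FPKM values for 85322 transcripts, used here without rescaling. The submitters' processing notes also name Trimmomatic, FastQC, kallisto and edgeR. Counts were not analysed here, so limma replaced the authors' negative binomial test.

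FPKM were summed per gene (37367 genes), and unnamed transcripts of loci with several names were left out (4738 transcripts). Depth, recovered from the steps between low values, was 5.44 to 7.49 gigabases aligned per library (78.9% to 83.5% of values whole within 0.1 base). Genes with a mean of at least 0.5 FPKM (17895) were tested on log2(FPKM + 1) with limma 3.58.1 in R 4.3.3, fitting a mean for each of the groups (10 residual degrees of freedom) with a trend in the variance. A call needed a two-sided Benjamini-Hochberg adjusted p under 0.05 over all genes and a fold of at least 1.5 (for the change over time between the doses, the adjusted p alone). Low members were compared by two-sided exact permutation tests and by the limma fit without the filter. The fit was also run on simulated data for 20 Gy 24 h against control (17895 genes, independent normal noise). There, 100 genes were changed by 1 and 100 by 2 (log2). Of these, 75% and 96% were called, none with the wrong sign, beside 10 false calls. In the real comparison 7219 genes were called, so these rates do not carry over to it.

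Groups and replicate numbers come from the sample titles. The members and lists were chosen with earlier results of these data known. Pathway genes were named from these lists, in each comparison up to 4 called genes per list with the largest change, and ligands and receptors whatever their values. Markers, neighbours of members, genes most alike and genes said to be named after their values were seen stand outside that rule. Some items are not reported here. Promoters are RefSeq sequences of GRCr8. No 2 libraries shared over 0.00669% of values. Alternatives were another pseudocount, other filters, scalings, thresholds, transcript sums, fits and libraries left out.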

Additional observations from a re-analysis of the deposited data

Results flagged for a closer look

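For 4 members the level differed between 24 h and 12 h by limma's test of the 24 h groups against the 12 h groups. In these comparisons 36.4% of all 17895 tested genes were called after 5 Gy and 36.3% after 20 Gy. Nothing particular to the members is read from their number. Irf1 differed by 1.67 on the log2 scale after 5 Gy and by 1.59 after 20 Gy, the latter 0.13 and not called with only annotated transcripts. Isg15 differed by -1.77 and -1.21, with both 12 h groups called higher than the controls and, at 24 h, the 5 Gy group called lower and the 20 Gy group at -0.36 and not called. Irf3 differed by -1.11 and -1.55, which became -1.04 and -1.44 and were not called with only annotated transcripts. Stat2 differed by -0.65 after 20 Gy, or -0.53 and not called with only annotated transcripts. With no unexposed culture at 24 h, time after exposure and time in culture cannot be told apart.

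The unnamed transcript beside Isg15, which the sum for Isg15 did not use, averaged 3.56 FPKM at 12 h after 5 Gy and 3.26 FPKM at 12 h after 20 Gy, above the control mean of 1.60 FPKM.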

How the results depend on the processing

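No 24 h control, 3 libraries a group and the lack of counts limit what these values can show, and members near or below 0.5 FPKM rest on few reads. Of the values of the 5 tested members under the alternatives, 1156 kept their direction and side of the threshold, 27 lost the call, 6 gained it, 5 were called values that turned or values called on turning, and 21 turned sign without being called either way. Of these 21, 13 came with only annotated transcripts or the transcript of the highest mean, among them Irf7 between 12 h and 24 h after 20 Gy (-1.15), Irf3 in the 5 Gy 12 h group (-0.69) and Irf3 between the doses at 24 h (0.54). The 5 were Irf7 with only annotated transcripts, at -0.75 (5 Gy 12 h), -0.79 (5 Gy 24 h) and -0.75 (20 Gy 24 h), and Irf1 between the doses at 24 h, at -1.19 with only annotated transcripts and -1.19 with the transcript of the highest mean. The number of members called with only annotated transcripts was 2 in the 5 Gy 24 h group, 1 in the 20 Gy 24 h group, 1 between 12 h and 24 h after 20 Gy and 1 between the doses at 24 h. With the transcript of the highest mean it was 2 in the 20 Gy 24 h group, 2 between 12 h and 24 h after 20 Gy and 1 between the doses at 24 h. With a fold of at least 2 it was 0 and 1 in the 5 Gy and 20 Gy 12 h groups, and 2 in the 5 Gy 24 h group. At an unadjusted p it was 1 for the change over time between the doses. Leaving out 1 library at a time, 3 to 4 members were called in the 20 Gy 24 h group and between 12 h and 24 h after 20 Gy, as given with Stat2, and the other comparisons kept their counts. Adding the unnamed transcripts to Irf9 left the 45 values of the tested members with the same direction and call. That outcome was all but fixed in advance, because only the Irf9 sum was changed.

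Counts over all genes moved by over 1.5 times as follows, by construction where the threshold or the rows changed. With a fold of at least 2 they went from 1779, 1528, 7395 and 7219 (5 Gy 12 h, 20 Gy 12 h, 5 Gy 24 h, 20 Gy 24 h against the controls) to 588, 433, 3584 and 3444, and with only annotated transcripts to 751, 635, 3608 and 3521. Between 12 h and 24 h they went from 6508 and 6489 to 2834 and 2817, and to 2919 and 2830. Between the doses at 12 h, 22 genes became 10 (fold of at least 2), 361 (unadjusted p), 12 (pseudocount 0.1), 48 (quantile normalization), 2 (only the groups compared), 11 (transcript of the highest mean) and 6 (only annotated). At 24 h, 433 became 119 (fold of at least 2), 867 (unadjusted p), 798 (rescaled to the same sum, with 21498 genes tested), 37 (only the groups compared), 276 (transcript of the highest mean) and 112 (only annotated). For the change over time, 99 became 2305 (unadjusted p), 47 (only the groups compared) and 27 (only annotated). Leaving out 1 library gave 5 to 38, 293 to 535 and 44 to 252 genes in these 3, with 5 without any of the 5 Gy 12 h libraries and 38 without 20 Gy 24 h replicate 1 for the first, and 44 without 20 Gy 12 h replicate 1 and 252 without 20 Gy 24 h replicate 3 for the last. Elsewhere the cause was not tested.

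No shared effect of the replicate numbers of the titles was seen, which cannot show that the cultures were unpaired. Over 30 pairs with the same number, the correlation of deviations from the group means ran from -0.177 to 0.232 with a median of 0.0088, and 4 of 15 libraries correlated best with their own number. Over 60 pairs with other numbers the correlation ran from -0.209 to 0.203 with a median of 0.0063. With the replicate block, 2, 2, 4, 4, 3 and 4 members were called in the 4 comparisons with the controls and the 2 between times, and 0 between the doses, as without it. All genes called were 1748, 1495, 7370 and 7209 against the controls.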

Other observations

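Irf4, a regulatory factor better known from lymphocytes, averaged 0.384 FPKM over all libraries and so fell under the filter. It is named after its values were seen. It averaged 0 FPKM in the controls, 0.00872 and 0.00378 at 12 h after 5 Gy and 20 Gy, and 0.943 and 0.965 FPKM at 24 h.

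Ddx58, an RNA sensor gene, was listed at 0 in 14 of 15 libraries and read at 4.14 FPKM in 1 library of the 5 Gy 24 h group. Nmi was likewise listed at 0 in 14 of 15 libraries and read at 4.46 FPKM in 1 library of the 5 Gy 12 h group. Both are named after their values were seen. Each rests on 1 library, and whether reads of these genes were given to unnamed transcripts in the other libraries was not tested.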
